A study of Mus musculus with 3 samples.

Results

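The genes that make, break down and relay cyclic AMP were followed in the chromatin-bound RNA of mouse macrophages. Every gene of the deposited tables whose symbol names a phosphodiesterase of the Pde families (subunit letters a to d), an adenylyl cyclase (Adcy), a catalytic subunit of protein kinase A (Prkaca, Prkacb) or a regulatory subunit of it (Prkar1a, Prkar1b, Prkar2a, Prkar2b) was taken, by symbol alone. This gave 39 of 55450 annotated genes, made up of 23 phosphodiesterase genes, 10 adenylyl cyclase genes, 2 catalytic and 4 regulatory subunit genes. The samples form 1 group of 3 libraries of ribosomal RNA-depleted total RNA from the chromatin fraction of primary bone marrow-derived macrophages of strain C57BL/6J, all stimulated with lipid A, the TLR4-binding part of bacterial lipopolysaccharide, at 100 ng/ml for 120 min. The age and sex of the mice are not given, and no genotype or other agent is named. No unstimulated cells were analysed here, so levels, isoforms and the spread between libraries are described, and nothing below is a response to lipid A.

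Cyclic AMP is made from ATP by adenylyl cyclases, which membrane receptors switch on through the stimulatory G protein and off through inhibitory ones. Phosphodiesterases end the signal by hydrolysing cyclic AMP, cyclic GMP or both, and protein kinase A, a tetramer of regulatory and catalytic subunits, is its best known effector. In macrophages cyclic AMP is known to restrain inflammatory cytokine production, and Pde4b is known in mice as the phosphodiesterase gene that lipopolysaccharide induces.

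The libraries held 19919358, 20430415 and 22023921 expected counts in replicates 1, 2 and 3. Starting RNA was 1 µg, 250 ng and 500 ng in that order and cannot be told apart from replicate. The labels call these biological replicates but give them the same donor entry and name no separate cultures, so spreads and p-values below measure only how these 3 libraries differ, and that may be technical. All 10 macrophage markers had a mean of at least 1 TPM (transcript abundance per length, scaled to a fixed total), while 30 of 33 markers of other cell types did not. The exceptions were Kdr (4.54 TPM), Cd4 (3.47 TPM) and Kit (1.17 TPM). Replicate 2 stood apart. Its 10 listed mitochondrial and cytoplasmic mRNAs summed to 3915 TPM, against 736 in replicate 1 and 843 in replicate 3, and 10 of the 10 were highest there. Levels are mean ± SD in TPM of the main gene tables over the 3 libraries (n = 3) unless another scale is named, and positions are on mouse build mm10. The authors also deposited transcript values by another method, called the other quantifier here. With it Cd3d (7.68 TPM), Pecam1 (6.75 TPM), Cxcr2 (3.91 TPM) and Ebf1 (2.14 TPM), markers of other cell types, also passed a mean of 1 TPM. Kit fell below it, at 0.980 TPM. Whether counting used strand is not stated, and 21 of the 39 genes overlap an annotated gene on the opposite strand, whose reads could be mixed with theirs. Others overlap one on the same strand, which strand would not separate. Of the members with a mean of at least 1 TPM these are Pde7b, Adcy9, Pde12, Pde4d and Pde2a, some of which overlap genes on both strands. Pde1b, Adcy7, Pde4b and Prkar1a overlap no other annotated gene.

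Promoter windows of 300 bases, 250 before and 50 from each annotated start, were taken from RefSeq on GRCm38.p6, which had entries for 31 of the 39 genes in 68 windows. The 6 windows shown are those at the starts of the leading isoforms of the highest phosphodiesterase, cyclase and protein kinase A genes and at 3 of the alternative starts of Pde4b. They are written 5′ to 3′ with matches to the motifs searched in capitals.
Pde1b, start of Pde1b-201 and Pde1b-202, chr15:103502784-103503083, plus strand: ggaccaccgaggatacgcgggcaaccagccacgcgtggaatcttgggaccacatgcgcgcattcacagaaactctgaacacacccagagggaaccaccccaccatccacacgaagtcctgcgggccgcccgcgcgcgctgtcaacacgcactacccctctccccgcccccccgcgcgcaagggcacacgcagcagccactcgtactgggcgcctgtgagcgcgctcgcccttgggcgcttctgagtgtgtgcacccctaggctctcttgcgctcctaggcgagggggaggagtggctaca
Adcy7, start of Adcy7-201, chr8:88293954-88294253, plus strand: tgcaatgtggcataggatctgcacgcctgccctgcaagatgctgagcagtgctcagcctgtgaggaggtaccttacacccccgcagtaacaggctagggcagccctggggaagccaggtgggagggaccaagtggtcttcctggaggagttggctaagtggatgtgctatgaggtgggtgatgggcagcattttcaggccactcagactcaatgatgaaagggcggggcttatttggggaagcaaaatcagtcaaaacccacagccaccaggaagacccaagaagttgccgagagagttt
Pde4b, start of Pde4b-203, chr4:102569810-102570109, plus strand: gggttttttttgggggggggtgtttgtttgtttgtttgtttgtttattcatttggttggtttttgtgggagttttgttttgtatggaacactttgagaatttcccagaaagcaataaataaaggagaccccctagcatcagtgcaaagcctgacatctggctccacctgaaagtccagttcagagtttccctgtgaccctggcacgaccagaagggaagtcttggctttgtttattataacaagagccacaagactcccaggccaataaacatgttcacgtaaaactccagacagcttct
Pde4b, start of Pde4b-201, chr4:102587308-102587607, plus strand: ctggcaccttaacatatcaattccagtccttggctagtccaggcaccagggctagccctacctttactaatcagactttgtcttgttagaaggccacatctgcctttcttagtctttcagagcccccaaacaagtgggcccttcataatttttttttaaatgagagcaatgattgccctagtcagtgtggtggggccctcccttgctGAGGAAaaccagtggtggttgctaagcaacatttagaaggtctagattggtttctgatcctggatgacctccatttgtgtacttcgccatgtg
Pde4b, start of Pde4b-202 and Pde4b-204, chr4:102589593-102589892, plus strand: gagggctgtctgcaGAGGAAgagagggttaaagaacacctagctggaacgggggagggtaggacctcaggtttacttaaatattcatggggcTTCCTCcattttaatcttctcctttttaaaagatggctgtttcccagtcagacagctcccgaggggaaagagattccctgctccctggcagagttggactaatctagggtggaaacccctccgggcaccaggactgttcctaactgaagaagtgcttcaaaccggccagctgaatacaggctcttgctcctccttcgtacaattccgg
Prkar1a, start of Prkar1a-201, chr11:109650699-109650998, plus strand: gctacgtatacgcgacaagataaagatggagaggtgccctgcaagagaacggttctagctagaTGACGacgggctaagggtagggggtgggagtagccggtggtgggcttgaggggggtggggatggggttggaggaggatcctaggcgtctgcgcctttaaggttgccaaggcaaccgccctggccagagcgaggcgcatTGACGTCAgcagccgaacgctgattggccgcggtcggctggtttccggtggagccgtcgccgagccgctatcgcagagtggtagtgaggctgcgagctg
The motifs, sought on either strand, were the full cyclic AMP response element TGACGTCA, its core TGACG, which lies within it, the AP-1 site TGANTCA, the NF-kB site, the PU.1 core GAGGAA, the TATA box TATAAA and the interferon response element. The capitals in the Prkar1a window mark the full element, 49 bases before the start, and a further TGACG. Prkar1a was the only one of 31 genes with TGACGTCA, in 2 overlapping windows, and 1.79% of 32851 RefSeq promoters hold it. The windows at Pde1b-201, Adcy7-201 and Pde4b-203 hold none of the 7 motifs. In the Pde4b windows further downstream the capitals mark PU.1 cores, 1 in the window of Pde4b-201 and 2 in that of Pde4b-202 and Pde4b-204, a motif found in 20 of the 68 windows and in 28.3% of all promoters. TGACG was in 15 of the 68 windows and in 20.8% of all promoters, and the NF-kB site in 0 of 68 and in 1.63%. The AP-1 site was in 4 of 68 and in 7.81%, and the TATA box in 4 of 68 and in 13.6%. The interferon response element was in 1 of 68 and in 3.44%. Other windows of Pde1b and Adcy7 do hold motifs. That interferon response element is in one of Pde1b, and an AP-1 site in one of Adcy7, where no annotated isoform starts in either window. These matches describe letters, not bound sites, and the Prkar1a window was chosen after its match was seen.

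Over all 39 genes, 13 reached 1 TPM in every library, against 37.5% of 21951 protein-coding genes. At 0.1 TPM in every library the members' share was 64.1% and that of protein-coding genes 51.5%, so on which side of the background the set lies depends on the threshold. A mean of at least 1 TPM was reached by 18 members, against 41.6% of protein-coding genes, and a mean of at least 5 TPM by 8, and the median gene stood at 0.707 TPM. The levels were concentrated in single genes of each class. Of the 17 neighbouring pairs in the order of the 18 genes with a mean of at least 1 TPM, 13 had overlapping ranges over the 3 libraries. The 4 that did not overlap were Pde1b above Adcy7, Pde4b above Pde7b, Pde7a above Pde8a and Prkacb above Pde4a. With the other quantifier the ranges of Pde4b (30.5 to 45.8 TPM) and Pde7b (17.6 to 39.9 TPM) overlapped. So did those of Pde7a (15.7 to 34.0 TPM) and Pde8a (13.6 to 26.3 TPM), while Pde1b stayed above Adcy7 and Prkacb above Pde4a.

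**Figure D1:**
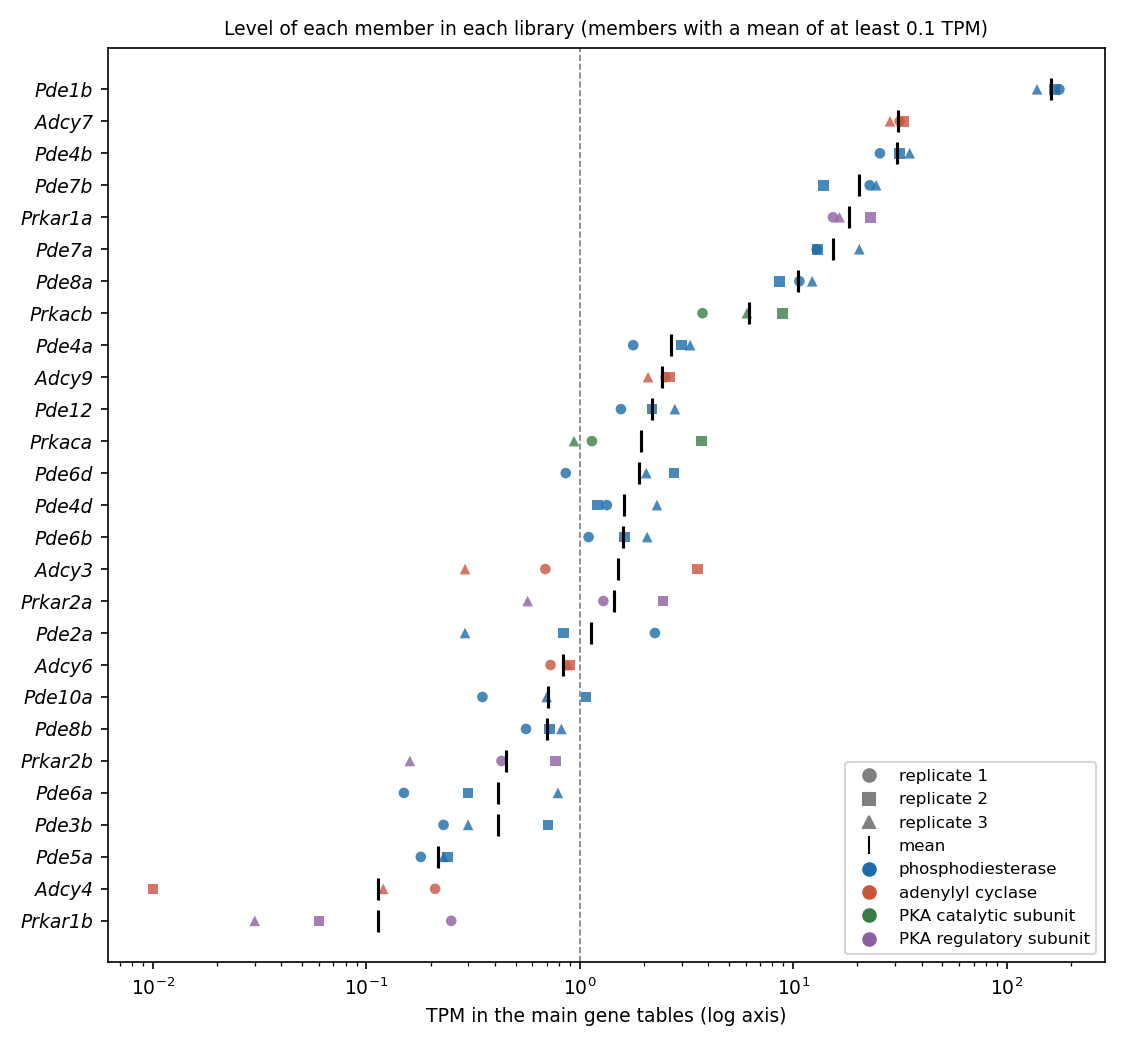
Level in TPM (log axis) of the 27 genes with a mean of at least 0.1 TPM, 1 point per library with the mean as a vertical stroke, coloured by class, in the order of the means. Pde1b stands apart at the top at 139 to 177 TPM, and the libraries spread widely for Adcy3, at 0.290 to 3.57 TPM, and for Prkar2a, Pde2a and Adcy4.

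Phosphodiesterase genes summed to 259, 250 and 247 TPM in replicates 1, 2 and 3, and most of that was Pde1b. Pde1b, whose enzyme is activated by calcium and calmodulin and hydrolyses both cyclic AMP and cyclic GMP (chromosome 15, 103503034 to 103530052), had 177, 168 and 139 TPM in replicates 1, 2 and 3. Its mean of 161 ± 19.9 TPM ranked 206 among 21951 protein-coding genes and was 63.9% ± 6.67 of the phosphodiesterase sum (47.3% with the other quantifier). It exceeded Adcy7, the next gene, 5.60-, 5.12- and 4.88-fold within replicates 1, 2 and 3, and 3.68-, 2.67- and 2.14-fold with the other quantifier. The other Pde1 genes were near 0, with Pde1c at 0.0633 ± 0.0252 TPM and Pde1a at 0 counts in every library (0.383 TPM with the other quantifier).

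Pde1b reads were spread over 5 annotated isoforms. The coding Pde1b-201 had 96.5, 90.0 and 69.9 TPM in replicates 1, 2 and 3 and the coding Pde1b-203 had 34.7, 30.8 and 23.0 TPM. Pde1b-202, annotated as a target of nonsense-mediated decay and starting in the same window as Pde1b-201, had 17.5, 20.9 and 22.3 TPM. Pde1b-205, which starts 11886 bases downstream of Pde1b-201, held 8.62% ± 0.75 of the gene's TPM.

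The Pde4 genes encode the cyclic AMP-specific enzymes inhibited by rolipram, and Pde4b led them. Pde4b (chromosome 4, 102087543 to 102607259) had 25.5, 31.6 and 35.2 TPM in replicates 1, 2 and 3, a mean of 30.7 ± 4.88. It was 12.2% ± 2.22 of the phosphodiesterase sum and 87.8% ± 1.44 of the Pde4 sum. Within replicates 1, 2 and 3 Pde4b was 14.3-, 10.6- and 10.7-fold above Pde4a, which had 2.69 ± 0.80 TPM. Pde4d had 1.62 ± 0.60 TPM and Pde4c 0.0200 TPM, with 1 count in each library. In the main tables the 3 libraries gave the same order of Pde4b, Pde4a, Pde4d and Pde4c. With the other quantifier replicates 1 and 2 gave it too, but in replicate 3 Pde4d (4.02 TPM) was just above Pde4a (3.98 TPM).

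Pde4b spans over 500 kb and has 13 annotated isoforms, of which 4 had a mean of at least 0.1 TPM in the main tables and 6 with the other quantifier. Long forms of the encoded enzyme start far upstream and carry regulatory regions that short forms from downstream starts lack in part or whole. Pde4b-207, the most upstream of the isoforms detected, had 8.11, 10.5 and 8.52 TPM in replicates 1, 2 and 3. Pde4b-203, which starts 315092 bases further on, had 9.51, 11.9 and 11.2 TPM, and was the leading isoform at 35.6% ± 3.20 of the gene's TPM. Its start is the Pde4b window printed above without a motif match. Pde4b-202 had 3.90, 3.95 and 6.00 TPM and Pde4b-204, which starts 120 bases after it, 3.99, 5.22 and 9.42 TPM. In the main tables replicate 3 was highest for Pde4b-202 and Pde4b-204, whereas replicate 2 was highest for Pde4b-207 and Pde4b-203. With the other quantifier replicate 3 was highest for Pde4b-203 too, and for the pooled isoforms upstream of it.

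The methods disagreed on Pde4b-201, whose start lies between those of Pde4b-203 and Pde4b-202. It was listed at 0 in every library of the main tables, and with the other quantifier it had 6.08, 5.39 and 9.33 TPM in replicates 1, 2 and 3. The isoforms from the most downstream starts (Pde4b-201, Pde4b-202 and Pde4b-204) therefore held 34.6% ± 8.07 of the gene's TPM in the main tables and 56.7% ± 6.20 with the other quantifier. For Pde4b-207 and the other isoforms upstream of Pde4b-203 the shares were 29.8% ± 4.89 and 19.9% ± 3.49. The pooled downstream isoforms exceeded Pde4b-203 in every library with the other quantifier, and in the main tables in replicate 3 alone, at 43.9% against 31.9%. As a single isoform Pde4b-203 had the highest mean by either method. The retained-intron isoform Pde4b-209 was listed at 0 in the main tables and had 0.967, 1.22 and 1.86 TPM with the other quantifier in replicates 1, 2 and 3.

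**Figure D2:**
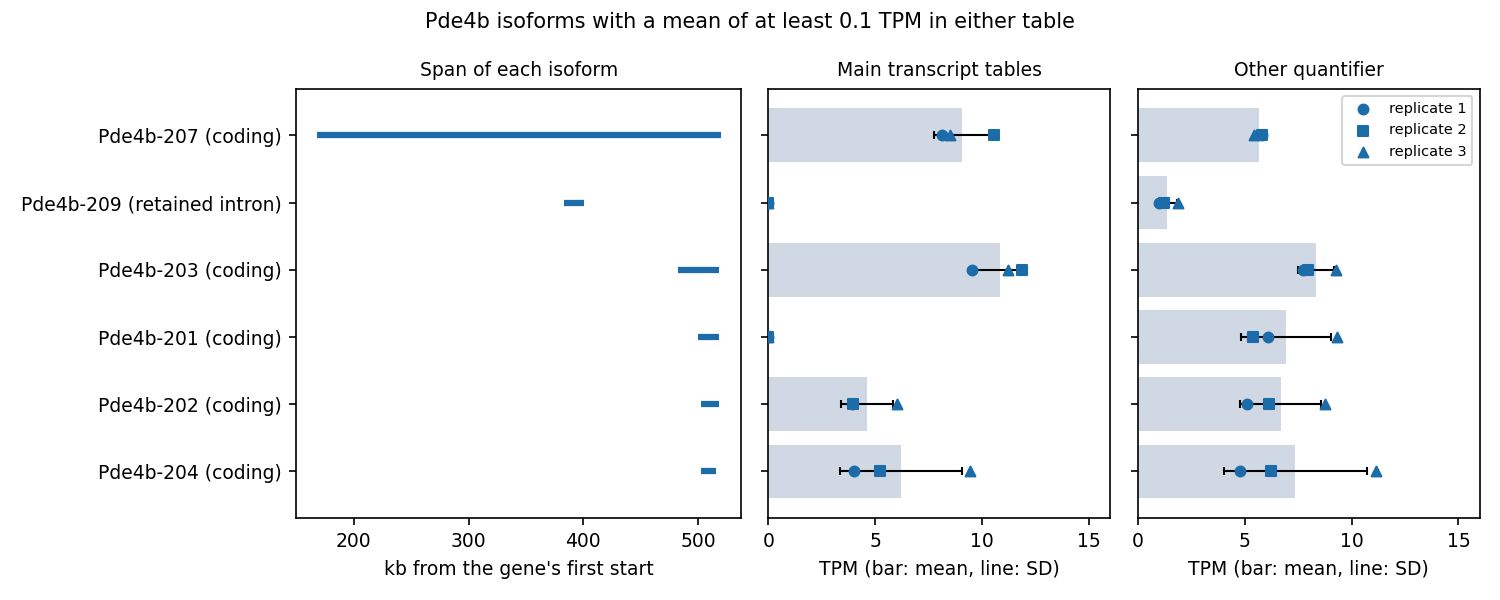
Left, span of the 6 Pde4b isoforms with a mean of at least 0.1 TPM in either method, in kb from the gene's first annotated start; middle and right, their TPM in the main tables and with the other quantifier (bar, mean; line, SD; points, the 3 libraries). Pde4b-203 has the longest bar by either method, at 10.9 TPM in the main tables and 8.34 TPM with the other quantifier, and Pde4b-201 is at 0 in the main tables and at 6.94 TPM with the other quantifier.

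The Pde7 and Pde8 genes, which encode high-affinity cyclic AMP-specific enzymes that rolipram does not inhibit, followed. Pde7b (chromosome 10, 20398004 to 20725078) had 22.8, 13.9 and 24.5 TPM in replicates 1, 2 and 3, Pde7a (chromosome 3, 19223108 to 19311322) had 12.9, 13.0 and 20.4 TPM, and Pde8a (chromosome 7, 81213596 to 81334533) had 10.7, 8.61 and 12.3 TPM. Replicate 2 was the lowest for Pde7b and Pde8a, and the ranges of Pde7b and Pde7a overlapped. These levels pool all isoforms of a gene. In the main tables isoforms not annotated as coding held 54.3% of the TPM of Pde7b, 60.8% of Pde7a and 33.2% of Pde8a. The coding isoforms averaged 9.31 TPM for Pde7b and 6.04 TPM for Pde7a. Pde8b was lower, at 0.700 ± 0.131 TPM, and Pde8a exceeded it 19.1-, 12.0- and 15.0-fold in replicates 1, 2 and 3.

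The remaining phosphodiesterase genes were at low levels. Pde12 (2.18 ± 0.62 TPM) encodes a nuclease that degrades oligoadenylates rather than cyclic nucleotides, and Pde6d (1.89 ± 0.96 TPM) a chaperone of prenylated proteins. Pde6b, a rod photoreceptor subunit gene, had 1.60 ± 0.49 TPM, most of it assigned to retained-intron isoforms as described below. Pde2a, whose enzyme cyclic GMP stimulates, had 2.25, 0.840 and 0.290 TPM in replicates 1, 2 and 3, so its mean of 1.13 TPM fell to 0.565 TPM without replicate 1. Below 1 TPM the highest was Pde10a at 0.707 ± 0.36 TPM. The genes of the cyclic GMP-inhibited enzymes stood at 0.413 ± 0.259 TPM for Pde3b and 0.0167 ± 0.0115 TPM for Pde3a. Pde3a was the lowest phosphodiesterase gene with any count. The cyclic GMP-specific Pde5a had 0.217 ± 0.0321 TPM. Pde1a, Pde9a and the cone photoreceptor gene Pde6c had 0 counts in every library of the main tables, where 3 counts, the limit of a 0, amount to 0.152, 0.147 and 0.137 CPM (count share of the library). That limit covers counting error alone and not how reads were assigned, since Pde1a had 21.1, 65.4 and 86.0 estimated counts with the other quantifier, while Pde9a stayed at 0. Pde11a had 0.0300 ± 0.0265 TPM.

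Among the cyclases the transcripts were nearly all Adcy7. Adcy7, a cyclase stimulated by G protein beta-gamma subunits (chromosome 8, 88272403 to 88329962), had 31.6, 32.9 and 28.4 TPM in replicates 1, 2 and 3, and its mean of 31.0 ± 2.27 TPM was 86.3% ± 3.94 of the summed cyclase TPM. Its range overlapped that of Pde4b. Within replicates 1, 2 and 3 it was 12.5-, 12.4- and 13.6-fold above Adcy9, which had 2.42 ± 0.29 TPM, and 21.3-, 26.1- and 35.2-fold above it with the other quantifier. Adcy3, the cyclase of olfactory neurons, had 0.690, 3.57 and 0.290 TPM. Replicate 2 set its mean of 1.52 TPM in the main tables, which was 0.490 TPM without that library. With the other quantifier Adcy3 had 2.83, 3.04 and 2.00 TPM in replicates 1, 2 and 3. Adcy3 shares its locus with Cenpo on the opposite strand. The calcium-inhibited cyclase gene Adcy6 was the highest of the rest at 0.837 ± 0.0929 TPM. Adcy4 averaged 0.113 TPM, Adcy5 0.0967 ± 0.0651 and Adcy2 0.0600 ± 0.0173 TPM. The calcium-stimulated Adcy1 and Adcy8 and the bicarbonate-activated soluble cyclase gene Adcy10 had 0 counts in every library. With the other quantifier Adcy10 had 1.02 TPM, nearly all of it on 1 retained-intron isoform (0.986 TPM).

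Protein kinase A was represented mainly by Prkar1a and Prkacb. Prkar1a, the widely expressed type I regulatory subunit gene (chromosome 11, 109649405 to 109669656), had 15.4, 23.0 and 16.5 TPM in replicates 1, 2 and 3, a mean of 18.3 ± 4.11. Its isoform Prkar1a-201, whose start window carries the TGACGTCA element printed above, had 10.7 ± 4.19 TPM and Prkar1a-202 had 5.48 ± 0.56 TPM. The type II gene Prkar2a had 1.29, 2.46 and 0.570 TPM (mean 1.44, and 0.930 without replicate 2). Prkar2b had 0.453 ± 0.306 TPM and Prkar1b 0.113 ± 0.119 TPM. The log2 ratio of type I to type II regulatory subunit TPM was 3.18, 2.83 and 4.50 in replicates 1, 2 and 3, above 0 in all 3. No p is given, since for a single value over 3 libraries the exact two-sided sign-flip test reaches 0.25 at the least.

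Of the catalytic subunits, Prkaca had 1.14, 3.72 and 0.940 TPM in replicates 1, 2 and 3 and Prkacb (chromosome 3, 146729574 to 146812990) had 3.76, 8.89 and 6.07 TPM. The log2 ratio of Prkaca to Prkacb was -1.72, -1.26 and -2.69, below 0 in all 3 libraries, with a mean of -1.89 that was -1.18 over coding isoforms alone and -2.75 in expected counts. The Prkaca mean of 1.93 TPM was 1.04 TPM without replicate 2. Summed over the regulatory genes there were 17.3, 26.3 and 17.3 TPM, and over the catalytic genes 4.90, 12.6 and 7.01 TPM. The regulatory sum was thus 3.54-, 2.08- and 2.46-fold the catalytic sum, and 1.97-, 1.72- and 1.70-fold with the other quantifier.

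The rest of the cyclic AMP pathway was read from a list of 63 genes, all of them in the tables, of which 33 had a mean of at least 1 TPM, against the 41.6% of protein-coding genes given above. Of the G protein genes 3 of 7 did, led by the inhibitory Gnai2 (70.4 TPM), the stimulatory Gnas (45.7 TPM) and Gnai3 (10.5 TPM), while Gnai1 was at 0. Of the receptors coupled to the stimulatory G protein 7 of 13 did, led by the calcitonin receptor-like gene Calcrl (20.9 TPM), the prostaglandin E2 receptor gene Ptger4 (10.4 TPM) and the adenosine receptor gene Adora2a (8.75 TPM), with Ptgdr and Adrb3 at 0. Among CREB factors and coactivators 7 of 8 did, with Crtc2 at 77.9, Creb5 at 65.9, Creb1 at 28.7 and Crtc1 lowest at 0.543 TPM. Of the 12 genes for proteins that anchor protein kinase A, 10 did, with Akap13 at 166, Akap9 at 43.4, Akap8 at 26.1 and Akap5 lowest at 0.0533 TPM. Effectors other than protein kinase A reached it in 1 of 9 genes, the exchange factor gene Rapgef3 at 3.80 TPM. Inhibitors of the kinase did in 2 of 3, with Pkig at 2.72, Pkib at 1.13 and Pkia at 0 TPM. The nucleotide exporter genes Abcc5 and Abcc4 had 138 and 5.80 TPM, and Pde4dip, which encodes a Pde4d-binding protein, 0.687 TPM. On the cyclic GMP side 1 of 8 genes did, the kinase gene Prkg1 at 13.9 TPM. The genes of the soluble guanylyl cyclase subunits were at or below 0.0200 TPM in the main tables. With the other quantifier Gucy1a2 had 1.12, Gucy1a1 0.490 and Gucy1b1 0.0202 TPM.

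Chromatin-bound RNA includes unspliced and partly spliced transcripts, so isoforms annotated with a retained intron were set against coding isoforms of the same gene as log2 of their summed TPM + 0.1. Of 26 members with both kinds, 12 had a mean count of at least 50 and were tested against 0 with limma over 5603 genes. The retained-intron isoforms were higher in 2 (background 19.3%) and lower in 4 (background 29.7%), so the share of calls was near the background in each direction. The median over the 12 was -0.52 and over all genes tested -0.23.

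The 3 highest members were among the 4 that were lower. In Pde1b the retained-intron isoform had 11.5, 13.1 and 11.9 TPM in replicates 1, 2 and 3, and the coding isoforms 148, 134 and 105 TPM, a log2 ratio of -3.38 ± 0.28 (SE) with a limma adjusted p of 0.00101. In Pde4b both retained-intron isoforms were listed at 0 in every library and the coding ones summed to 25.5, 31.6 and 35.1 TPM. The Pde4b ratio of -8.26 (limma adjusted p 0.000178) therefore takes its size from the pseudocount, and with the other quantifier it was -4.62. Prkar2a had a ratio of -2.83 ± 0.37 (SE; limma adjusted p 0.00288), on 0.0800 TPM of the retained-intron isoform and 1.36 TPM of the coding ones. With so little retained-intron signal its size also depends on the pseudocount, and was -1.05 with 1 TPM and -3.77 with 0.01 TPM.

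Adcy7 had 1.87, 3.69 and 3.17 TPM of its retained-intron isoform Adcy7-206 in replicates 1, 2 and 3, and 25.5, 27.7 and 23.5 TPM of coding isoforms, a ratio of -3.14 ± 0.31 (SE; limma adjusted p 0.00137). With the other quantifier Adcy7-206 had 15.1, 19.1 and 31.1 TPM, the ratio was -0.11 and its limma adjusted p 0.772, so the Adcy7 call rests on the main tables. The genes with higher retained-intron isoforms were low ones. Pde6b had 0.940, 1.48 and 1.84 TPM of retained-intron isoforms in replicates 1, 2 and 3, and 0.160, 0.150 and 0.230 TPM of its coding isoform, a ratio of 2.41 ± 0.29 (SE; limma adjusted p 0.00234; 0.61 and 0.0529 with the other quantifier). The Pde4d ratio of 0.90 (limma adjusted p 0.0402) was -0.17 with the other quantifier, and it missed the threshold without any 1 of the 3 libraries. Pde7b, Pde7a, Pde4a, Prkacb, Adcy3 and Adcy6 were tested without a call.

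**Figure D3:**
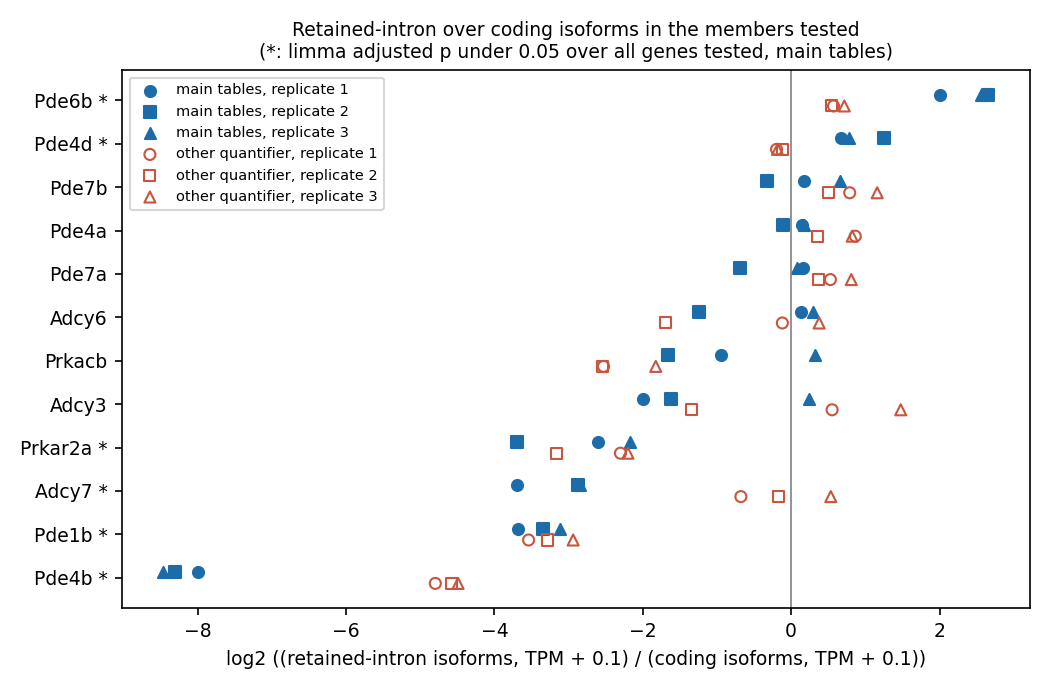
Log2 ratio of retained-intron to coding isoforms (TPM + 0.1) of the 12 members tested, filled blue points for the main tables and open red points for the other quantifier, 1 point per library. Pde4b and Pde1b lie left of 0 by either method, and the Adcy7 points lie between -3.70 and -2.85 in the main tables but near 0 with the other quantifier.

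Differences between the 3 libraries were tested for each gene against counting error with a chi-square test on counts scaled by trimmed means (TMM), in the 26 members with a mean count of at least 10. Of these 19 differed at an adjusted p under 0.05 over all genes, against a background of 68.8% of 14189 genes. By class the calls were 10 of 16 phosphodiesterase genes, 4 of 5 cyclase genes and 5 of 5 protein kinase A genes. The median ratio of the highest to the lowest library was 1.77 for the members and 1.56 for all genes tested, and the median biological coefficient of variation (edgeR) was 32.4% and 31.5%.

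Replicate 2 was the highest library for 14 of the 26 members (53.8%) and for 35.2% of all genes tested. The 5 protein kinase A genes tested were all highest there, as were, by TPM, the 10 mitochondrial and cytoplasmic mRNAs summed above. The part of that in these results was not tested. With the other quantifier replicate 3 was highest for Prkar1a, at 19.1, 21.9 and 27.7 TPM in replicates 1, 2 and 3. The same held for Prkacb, at 8.93, 11.1 and 14.6 TPM, while Prkaca, Prkar2a and Prkar2b stayed highest in replicate 2. Prkar1a had 39.4, 55.2 and 29.3 TMM-scaled CPM in replicates 1, 2 and 3 (chi-square adjusted p 1.63e-39). Prkacb had 18.7, 34.7 and 18.1 CPM (adjusted p 3.16e-33) and missed the threshold without replicate 2. Prkaca had 2.84, 7.74 and 1.74 CPM (adjusted p 3.03e-23) and Prkar2a 3.56, 9.50 and 1.54 CPM (adjusted p 1.43e-33). On this scale replicate 3 was the lowest of the 3 for each of them. By main TPM replicate 1 was the lowest for Prkar1a (15.4, against 16.5 in replicate 3) and Prkacb (3.76 against 6.07). With the other quantifier replicate 1 was the lowest for these and for Prkaca. Without replicate 2 the calls of Prkar1a, Prkaca, Prkar2a and Prkar2b held. Prkar2b, at 1.78, 2.35 and 0.290 CPM, lost its call without replicate 3. The widest spread in CPM was in Adcy3, at 3.84, 12.2 and 1.12 CPM, a 10.9-fold range (chi-square adjusted p 4.97e-56). With the other quantifier Adcy3 had 111, 316 and 67.0 estimated counts in replicates 1, 2 and 3 (chi-square adjusted p 1.37e-52). Its TPM by that method were closer together, at 2.83, 3.04 and 2.00, so the width of the spread depends on the method and scale.

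Among the highest members, Pde1b had 576, 427 and 321 CPM in replicates 1, 2 and 3, a 1.79-fold range beyond counting error, and Adcy7 203, 167 and 127 CPM, a 1.60-fold range (adjusted p 4.42e-81). Pde4b had 96.9, 93.6 and 85.5 CPM, a 1.13-fold range that its 1740 to 2061 counts still placed beyond counting error (adjusted p 0.000683, but not with library totals in place of TMM). The order of libraries for Pde4b was turned round between scales, since replicate 3 was the highest by TPM and the lowest by TMM-scaled CPM. For Adcy7 the highest was replicate 1 by CPM, replicate 2 by main TPM (32.9) and replicate 3 with the other quantifier (55.8 TPM). No direction between libraries is therefore given for either gene as a whole. Pde7a, Pde4a, Pde4d, Pde5a, Pde6b, Pde8b and Adcy6 did not pass the test, and Pde8b had 1.56, 1.57 and 1.54 CPM.

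**Figure D4:**
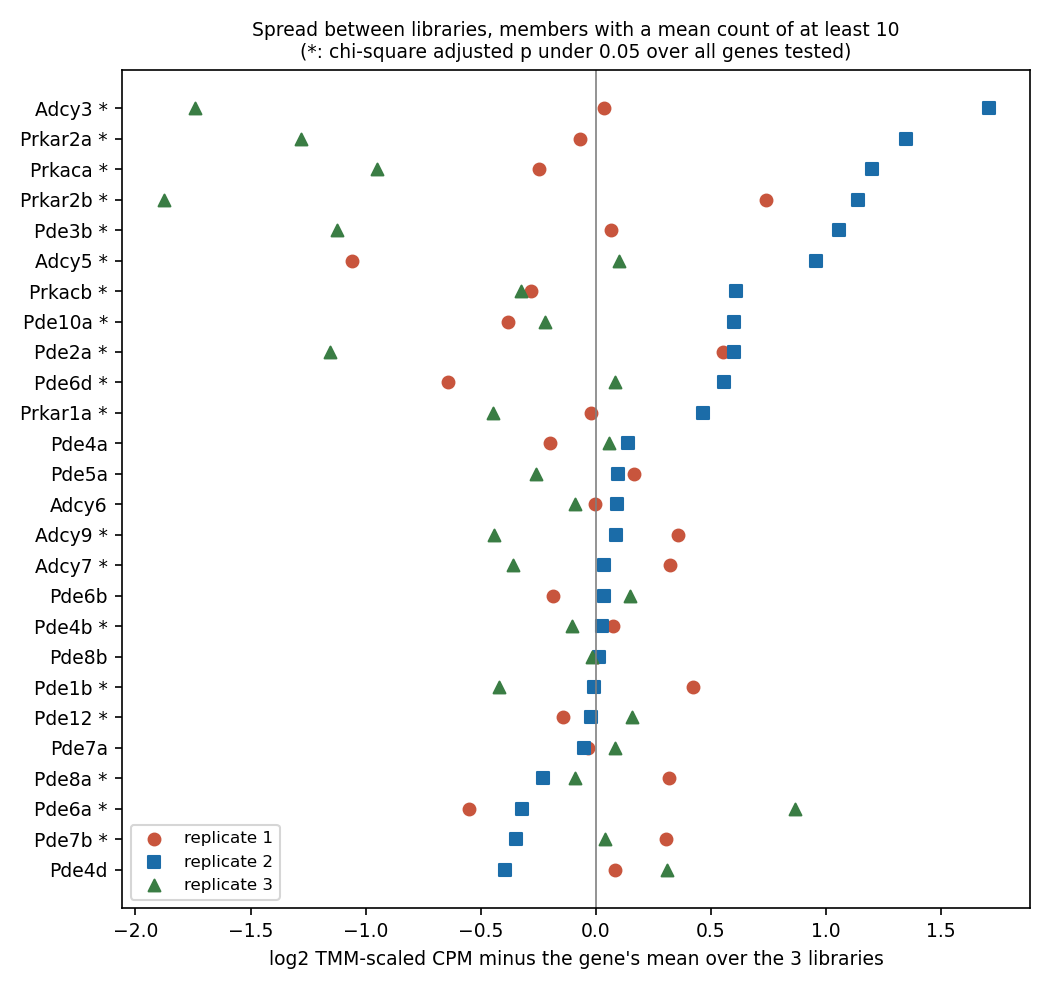
Log2 TMM-scaled CPM of the 26 members tested, 1 point per library, as the difference from the gene's mean over the 3 libraries, sorted by replicate 2; a star marks an adjusted p under 0.05. The blue squares of replicate 2 lie right of 0 for all 5 protein kinase A genes and for Adcy3, while Pde4b and Pde8b lie close to 0 in all 3 libraries.

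Both methods placed Pde1b highest, but the other quantifier gave lower members higher values. The median log2 ratio of the other quantifier to the main tables (TPM + 0.1) was 0.59 over the 39 members and 0.25 over protein-coding genes, and 0.56 and 0.34 among those with a mean count of at least 10. It was over 2-fold higher for 15 of the 39 members and for 24.3% of protein-coding genes, and 12 of the 15 were below 1 TPM in the main tables. Values were higher in every library for 25 members and lower in every library for 4, namely Pde1b, Adcy9, Prkar1b and Adcy2. Pde6a, a rod photoreceptor subunit gene that overlaps the pseudogene Rps2-ps10 on the opposite strand, had 8.30 TPM with the other quantifier, 8.18 of it on Pde6a-202, and 0.413 TPM in the main tables. Pde3b had 4.15 TPM, of which 3.64 were on the retained-intron isoform Pde3b-204, and 0.413 TPM in the main tables. Pde2a had 4.89 and 1.13 TPM, and Pde4c 0.887 and 0.0200 TPM. Among the members above 5 TPM, Prkacb had the highest mean log2 ratio (0.93), at 11.6 TPM with the other quantifier and 6.24 TPM in the main tables. Of that, 6.21 TPM were on the coding isoform Prkacb-207, which was listed at 0 in the main tables.

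**Figure D5:**
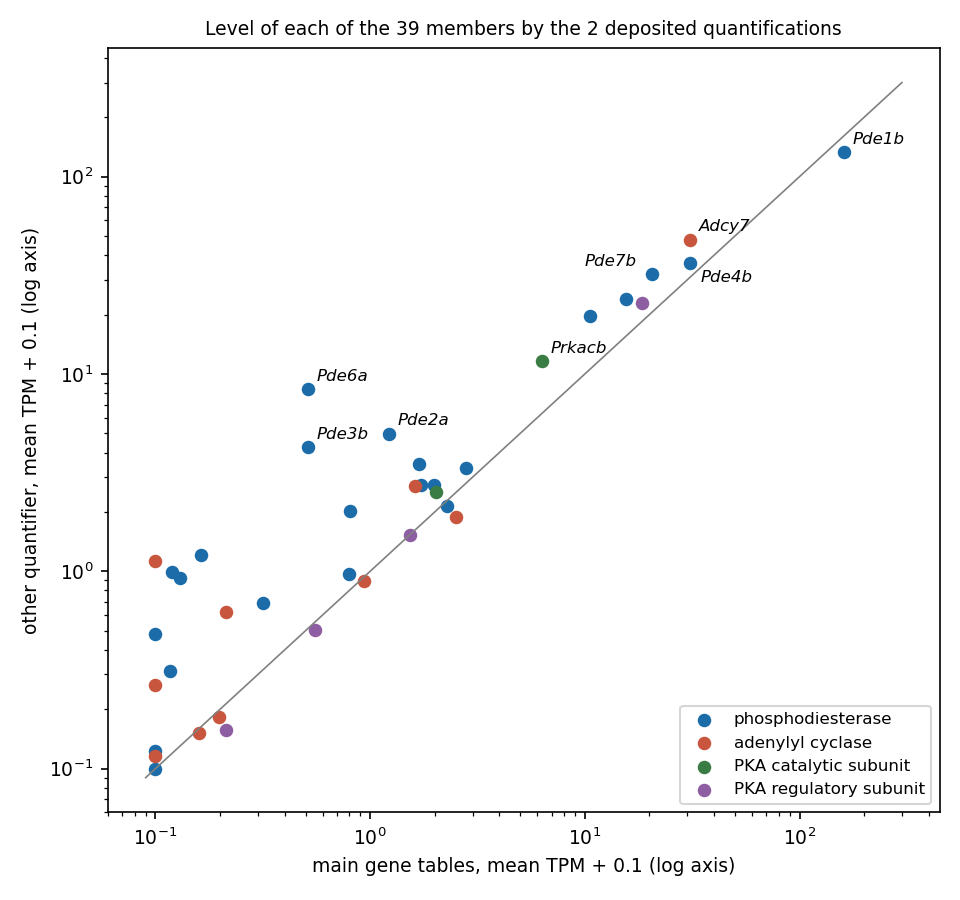
Mean TPM + 0.1 of each of the 39 members with the other quantifier (vertical) against the main tables (horizontal), log axes, coloured by class, with the line of equality. Pde1b lies below the line at 133 against 161 TPM, and Pde6a, Pde3b and Pde2a lie far above it.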

How the data were processed

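Chromatin-fraction RNA of 3 libraries in 1 group was analysed, grouped by the labels. Gene and transcript tables deposited by the authors hold expected counts (reads shared out among features, rounded here for tests) and TPM, made from transcriptome alignments to mm10 with GENCODE M21, per the deposited note. A further deposited transcript table holds estimated counts and TPM made directly from reads (the other quantifier, summed per gene). The quantifiers' names, versions and use of strand were not given in the sources used. Entries without annotation held 0.874%, 0.310% and 0.215% of counts and entered neither library sizes nor tests. Coding genes held 18.0%, 23.7% and 24.3% of TPM in replicates 1, 2 and 3.

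Members, lists and tests were chosen with earlier results of these data known. All members with a mean of at least 1 TPM, all Pde4 and protein kinase A genes, those at 0 and the highest and lowest of each class are named, and the 3 highest and the lowest of each pathway role. A few further members were named after their values were seen. The chi-square test used TMM factors from edgeR 4.0.16, and isoform ratios limma 3.58.1 (R 4.3.3), each with Benjamini-Hochberg adjustment over all genes tested and tested on simulated data. Tables were read with Python 3.11.15. Depth limits low genes: a count of 0 allows 3 counts, for counting error only. Alternatives covered thresholds, scaling (DESeq2 1.42.0 size factors, library totals), pseudocounts, isoform classes, the other quantifier and leaving out each library.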

Additional observations from a re-analysis of the deposited data

How the results depend on the processing

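No paired analysis was possible because the series holds 1 group. Against 13 members at 1 TPM in every library, there were 25 at 0.1 TPM, 7 at 5 TPM, 21 with the other quantifier and 22 with TPM rescaled to protein-coding genes. In that order these were 64.1%, 17.9%, 53.8% and 56.4% of members, against 51.5%, 21.6%, 46.2% and 47.9% of protein-coding genes. Against 19 members that differed between libraries, there were 12 of 17 tested with a mean count of at least 50 (80.2% of all genes), where fewer genes are tested, and 14 to 15 of 26 when each library was left out (47.5% to 54.7% of all genes). Calls were lost for Pde8a, Pde12, Pde6d, Pde10a and Adcy5 without replicate 1, for Prkacb, Pde6d, Pde10a and Adcy5 without replicate 2, and for Prkar2b, Pde2a, Pde6a, Pde12 and Pde10a without replicate 3. Against 6 members with an isoform ratio past the threshold, the other quantifier gave 17 of 23 tested, 8 higher and 9 lower, of which 3 (Pde4b, Pde1b and Prkar2a) were the same. Over all genes it gave 35.4% higher and 30.4% lower, and the Pde4d ratio turned to -0.17. The cause was not tested for these or for the values that follow. With the other quantifier, Pde1b held 47.3% of phosphodiesterase TPM, Pde4b 84.5% of the Pde4 sum, Pde4b-203 23.3% of Pde4b, the most downstream starts 56.7%, the upstream ones 19.9% and Pde1b-205 13.8% of Pde1b. With expected counts in place of TPM, these last 4 were 31.8%, 25.2%, 43.0% and 10.5%, and the log2 ratio of Prkaca to Prkacb was -2.75, against -1.18 with coding isoforms alone. With those, Pde4b held 16.4% of phosphodiesterase TPM and 94.8% of the Pde4 sum. Class sums with the other quantifier were 282 TPM for phosphodiesterases, 54.9 for cyclases and 14.0 for catalytic subunits, and after rescaling to protein-coding genes 1173, 167, 36.5 and, for regulatory subunits, 92.8 TPM. Shares of Adcy7 and the ratio of type I to type II subunits moved by less than 1 SD under every alternative run. Values of alternative Pde4b starts and of Pde1b-205 were added after the data were seen. Depth limits the 13 members with a mean count under 10. Without a count minimum 7 of them were tested, with chi-square adjusted p-values of 0.158 or more, and with the other quantifier 8 were tested and 2 called, Pde1a and Pde3a.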
